A study of Mus musculus with 7 samples.

Results

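The 44 genes described here encode glucose and lactate transporters, the enzymes of glycolysis, the pyruvate dehydrogenase kinases, a pair of glycogen enzymes, and the oxygen sensors, factor and induced genes of the hypoxia response. They were listed by function, with earlier results of these data known. Each was read on the brightest of the probe sets that the array's annotation pairs with that gene alone. Of the 44 genes, 42 had a value among 18194 genes in all, and Gpi1 and Eno1, which encode a glucose-6-phosphate isomerase and an enolase, were not analysed here. Expression was measured on Affymetrix mouse arrays in myoblasts, the dividing precursors that fuse into skeletal muscle fibres, from C57BL/6 mice. The 3 wild type samples (Hmga2 +/+) all came from females. The 4 samples labelled HMGA2 -/-, called Hmga2 KO below, came from males (replicates 1 and 3) and females (replicates 2 and 4). No treatment was given to either group. The sources used here do not give the age of the mice, how the myoblasts were isolated and grown, or how the allele was made. The comparison asked how transcripts of myoblasts differ in the absence of Hmga2, an architectural protein of chromatin.

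Glycolysis turns glucose into pyruvate, and phosphofructokinase is its main controlled step. Pyruvate then becomes lactate or enters the mitochondria through pyruvate dehydrogenase, which the pyruvate dehydrogenase kinases switch off. When oxygen is short, prolyl hydroxylases no longer mark the factor Hif1a for destruction, and it induces many genes of glycolysis together with genes such as Bnip3, Ndrg1 and P4ha2. Muscle also stores glucose as glycogen and makes its own forms of several glycolytic enzymes when myoblasts differentiate.

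The arrays share a median intensity of 150 in the deposited table, so an intensity is relative to its array. Log2 values of sample pairs correlated across genes at 0.980 to 0.994. Wild type replicate 2 stood apart in the ratio of 3' to 5' control probe sets, a sign of RNA integrity, with 1.94 for Actb against 1.61 to 1.74 in the other 6 samples. The targeted gene, Hmga2, had intensities of 9998 to 12800 in wild type and 85.7 to 104 in Hmga2 KO, so each sample matched its label. The position of its probe sets relative to the deletion is not stated in the sources used here. Myoblast markers were present in every sample, with summed intensities over 15 genes of 109650 to 112947 in wild type and 96913 to 114852 in Hmga2 KO. Probe sets of Y-linked genes gave 33.9 to 58.2 in female samples, which lack these genes, and this range served as background. Of the 42 genes only Aldoc reached it, with 5 of 7 samples at or below 58.2. A gene above this range is not thereby shown to be expressed. Hmga2 in Hmga2 KO lay above it, at 85.7 to 104, and whether that is background or residual transcript is not known. Car9, at 73.4 to 84.9, lay below those values of Hmga2.

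More of the 42 genes had lower than higher intensities in Hmga2 KO, led by the phosphofructokinase gene Pfkp, the kinase gene Pdk1 and the hypoxia-induced genes P4ha2, Bnip3 and Ndrg1. The glucose transporter gene Slc2a3 and the kinase gene Pdk4 had the opposite order. None of the 42 passed the test over all genes (limma, Benjamini-Hochberg adjusted p under 0.05), which 5 genes, or 0.0275%, passed. The smallest adjusted p of the 42 was 0.194, for Pfkp. At an unadjusted p under 0.05, 18 of the 42 (42.9%) differed, against 13.3% of all genes. Lower in Hmga2 KO were 16 of the 42 (38.1%), against 10.3% of all genes, and higher were 2 (4.76%), against 2.99%. Every Hmga2 KO sample lay below every wild type sample for 12 of the 42 (28.6%), against 9.29% of all genes. The reverse held for 3, Slc2a3, Pdk4 and Ddit4, against 2.37% of all genes. The median log2 difference, Hmga2 KO minus wild type, was -0.27 over the 42 genes and -0.07 over all genes. Of the 42, 29 (69.0%) lay below the median of all genes. Since the list was drawn up with earlier results of these data known, the shares describe the 42 genes and are no independent test.

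The counts moved with the samples and the scaling. The 16 lower genes became 10 without wild type replicate 2, 8 without wild type replicate 3 and 10 when Hmga2 KO replicate 3 was left out. The share of all genes that was lower fell as well, from 10.3% to 8.40%, 5.50% and 6.61%. Without both wild type replicate 2 and Hmga2 KO replicate 1, 11 were lower and 2 higher, against 8.63% and 3.61% of all genes. A model with sex as a covariate gave 10 lower and 2 higher, against 5.13% and 2.26% of all genes. The 5 females alone gave 9 lower and 2 higher, against 4.64% and 2.21% of all genes. Setting the gene medians of the arrays equal moved the median of all genes from -0.07 to 0.04. It left 8 of the 42 lower and 3 higher, against 3.46% and 7.29% of all genes, so that more of all genes were then higher than lower. Quantile normalization gave 10 lower and 3 higher, against 6.47% and 4.42% of all genes. The median of the 42 minus that of all genes was -0.20 as deposited and -0.18 after quantile normalization.

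**Figure D1:**
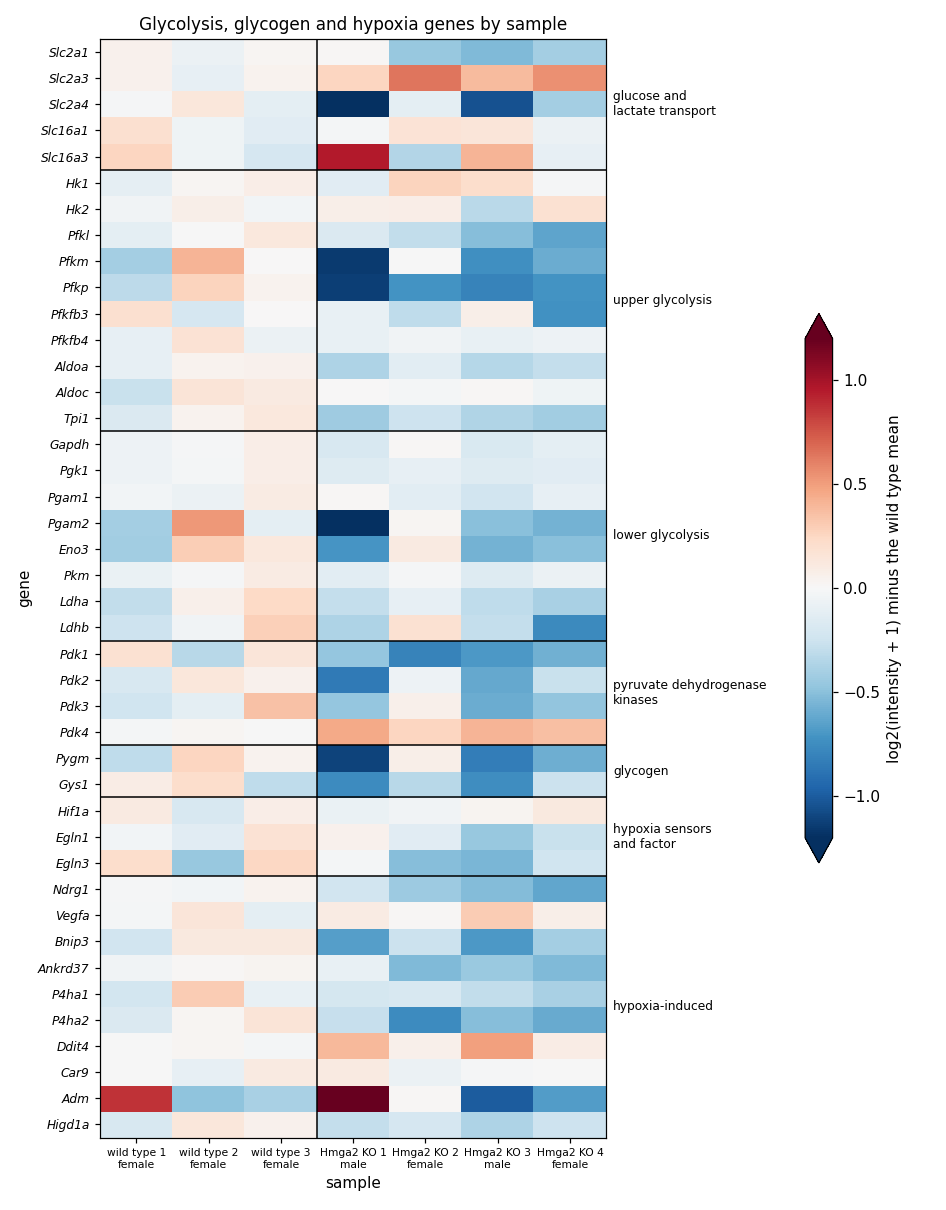
Log2(intensity + 1) of each gene in each sample minus the gene's wild type mean, with the 42 genes in order of role and the 7 samples labelled by genotype, replicate and sex. Blue is lower and red higher than the wild type mean. Hmga2 KO replicate 3 has the most genes below the wild type range, 30, and replicate 2 the fewest, 19.

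Each Hmga2 KO sample was also set against the range of the 3 wild type samples. Of the 42 genes, 23, 19, 30 and 27 lay below that range in Hmga2 KO replicates 1, 2, 3 and 4. Above it lay 5, 5, 6 and 5 genes. Among all genes, 38.9%, 24.6%, 42.5% and 38.1% lay below the wild type range in the same samples. Replicate 2, a female, was therefore the closest to wild type in both sets of genes.

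**Figure D2:**
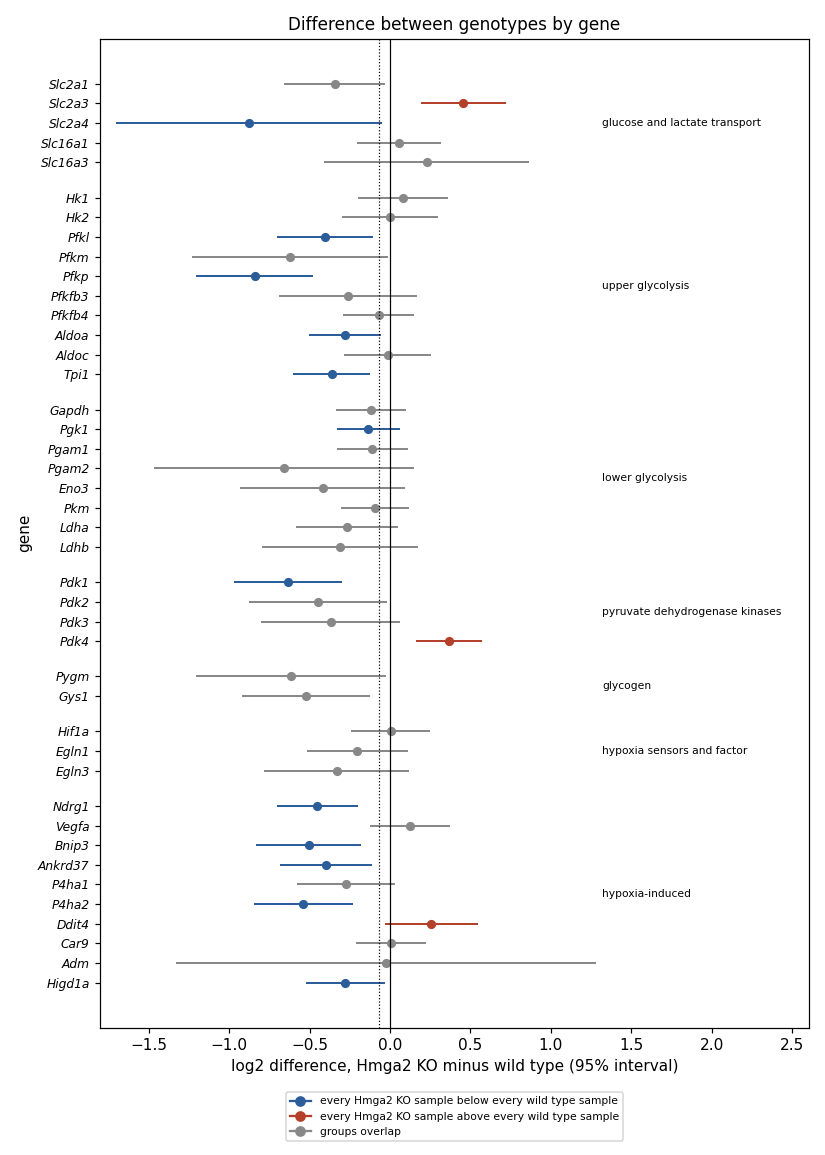
Log2 difference (Hmga2 KO minus wild type) with its 95% interval from limma for each of the 42 genes, grouped by role. Blue marks the 12 genes with every Hmga2 KO sample below every wild type sample, red the 3 with the opposite order and grey the genes whose groups overlap. The dotted line is the median of all genes, -0.07.

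Promoter sequences are shown for the 5 genes with the smallest p among those found in the RefSeq table used here. Of these Pdk4 had the opposite order to the other 4. The core of the element bound by Hif1a is ACGTG or GCGTG, and it was searched on both strands in windows from 250 bases before to 50 after each start (RefSeq, GRCm38.p6). On the opposite strand the motif reads CACGT or CACGC. Sequences run 5' to 3' along the gene. Capitals mark each match, and matches may overlap, so the palindrome CACGTG counts on both strands. Pfkp lies at chr13:6648722-6649021 on the minus strand with 4 matches, Pdk1 at chr2:71872974-71873273 on the plus strand with 2, and Bnip3 at chr7:138909457-138909756 on the minus strand with 5. P4ha2 lies at chr11:54100674-54100973 on the plus strand with 4 matches, and Pdk4 at chr6:5496229-5496528 on the minus strand with 1. Pdk1 has another RefSeq start, whose window held 0 matches.
Pfkp: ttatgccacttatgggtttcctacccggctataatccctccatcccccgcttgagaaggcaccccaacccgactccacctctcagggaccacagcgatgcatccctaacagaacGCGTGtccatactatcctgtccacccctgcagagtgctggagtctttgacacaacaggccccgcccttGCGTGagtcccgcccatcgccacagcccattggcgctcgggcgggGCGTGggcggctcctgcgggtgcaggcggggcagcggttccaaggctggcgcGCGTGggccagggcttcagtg
Pdk1: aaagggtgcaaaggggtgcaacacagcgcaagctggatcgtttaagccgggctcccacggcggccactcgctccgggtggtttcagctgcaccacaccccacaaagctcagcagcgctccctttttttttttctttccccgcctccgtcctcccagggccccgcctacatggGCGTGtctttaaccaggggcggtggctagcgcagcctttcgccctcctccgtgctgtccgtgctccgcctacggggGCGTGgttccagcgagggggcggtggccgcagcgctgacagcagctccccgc
Bnip3: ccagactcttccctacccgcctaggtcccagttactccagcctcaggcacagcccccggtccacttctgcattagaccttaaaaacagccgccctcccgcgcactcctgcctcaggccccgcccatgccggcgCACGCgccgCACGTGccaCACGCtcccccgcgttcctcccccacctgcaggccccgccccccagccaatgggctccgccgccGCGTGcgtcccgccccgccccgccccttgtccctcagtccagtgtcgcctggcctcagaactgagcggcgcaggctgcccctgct
P4ha2: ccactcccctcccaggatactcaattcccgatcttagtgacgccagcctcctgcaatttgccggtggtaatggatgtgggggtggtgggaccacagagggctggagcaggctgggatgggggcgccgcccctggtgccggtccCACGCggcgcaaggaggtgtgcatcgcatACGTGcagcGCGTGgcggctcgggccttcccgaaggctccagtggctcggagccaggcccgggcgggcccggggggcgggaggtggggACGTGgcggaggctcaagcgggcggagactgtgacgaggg
Pdk4: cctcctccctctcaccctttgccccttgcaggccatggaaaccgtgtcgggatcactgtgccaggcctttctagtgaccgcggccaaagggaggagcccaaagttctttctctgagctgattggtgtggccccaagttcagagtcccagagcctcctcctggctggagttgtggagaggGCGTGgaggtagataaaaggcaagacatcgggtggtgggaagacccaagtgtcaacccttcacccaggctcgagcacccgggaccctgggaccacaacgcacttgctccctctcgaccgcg

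Of the 44 genes, 41 were found in the promoter table, all but Slc2a3, Slc2a4 and Ndrg1. A match lay in at least 1 window of 37 of the 41 (90.2%), against 12628 of 27025 genes (46.7%) in the whole table. For ACGTG alone the shares were 68.3% and 21.8%. The windows of the 41 genes were also richer in G and C, with a median of 61.7% against 52.7%, and the part of this difference in the shares was not tested. Among genes lower in Hmga2 KO at an unadjusted p under 0.05, 12 of 14 had a match (85.7%). Among those not past it, 23 of 24 did (95.8%). The share was thus no higher in the genes past that p than in the others, and a match describes letters in the window, not binding.

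Among the glucose transporters, the order of the genotypes differed between genes. Slc2a1, which encodes the widely expressed basal transporter, had intensities of 6143, 5629 and 6021 in wild type replicates 1 to 3 and 5987, 4325, 4115 and 4473 in Hmga2 KO replicates 1 to 4. Male Hmga2 KO replicate 1 lay inside the wild type range, and the other 3 lay below it. Hmga2 KO minus wild type came to -0.34 (SE 0.135, limma adjusted p = 0.338). Its other 2 probe sets had -0.33 and -0.31. Slc2a3, the high-affinity transporter best known from neurons, had 205, 184 and 203 in wild type and 236, 307, 258 and 289 in Hmga2 KO. All 4 Hmga2 KO samples were above all wild type samples, and the 2 females were the highest. On the log2 scale this was a difference of 0.46 (SE 0.113, limma adjusted p = 0.250), which corresponds to 137% of wild type. Its other probe sets were mixed, with 0.52 on the second brightest and 0.05 and -0.15 on the 2 dimmest. Within each sample, the log2 gap between Slc2a3 and Slc2a1 was -4.90, -4.92 and -4.88 in wild type and -4.66, -3.81, -3.99 and -3.95 in Hmga2 KO. This gap differed by 0.80 between genotypes (exact two-sided permutation p = 0.0571 over 35 splits, 0.343 after adjustment over 9 isozyme pairs).

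Slc2a4 encodes the insulin-responsive transporter of muscle and fat. Its intensities were 1541, 1715 and 1439 in wild type and 413, 1435, 754 and 1173 in Hmga2 KO. Every Hmga2 KO sample was lower, but female replicate 2 lay just under the lowest wild type sample and male replicate 1 far below it. In log2 units, Hmga2 KO differed from wild type by -0.87 (SE 0.363, limma adjusted p = 0.353), and -0.27 in females alone. The lactate carrier genes Slc16a1 and Slc16a3 had overlapping groups. Slc16a3, the exporter of glycolytic cells, had 188 to 259 in wild type and 170.1 to 420 in Hmga2 KO, with both males above and both females within or below the wild type range. Slc16a1, the carrier found in most cells, differed by 0.05.

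In upper glycolysis, from hexokinase to triose phosphate isomerase, 5 of 10 measured genes were lower at an unadjusted p under 0.05 and 0 were higher. Among all genes 10.3% were lower and 2.99% higher at that p. The 3 phosphofructokinase genes, which encode the subunits of the main controlled step, were all among the 5. Pfkp, the platelet form, had intensities of 815, 1215 and 1044 in wild type and 462, 614, 582 and 616 in Hmga2 KO. The groups did not overlap, and the lowest value was that of male replicate 1. The means were 1025 ± 200 (SD, n = 3) and 568 ± 72.7 (SD, n = 4). The log2 difference was -0.84 (SE 0.157, limma adjusted p = 0.194), which corresponds to 55.8% of wild type. Its other 2 probe sets, which are dim, had -0.42 and -0.32. Its promoter, shown above, holds GCGTG 4 times.

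Pfkl, the liver form, had 759, 824 and 899.6 in wild type and 730.2, 675, 578 and 532 in Hmga2 KO. The groups did not overlap, although Hmga2 KO replicate 1 was close to the lowest wild type sample. Hmga2 KO minus wild type came to -0.40 (SE 0.129, limma adjusted p = 0.295), with -0.41 on its second probe set and 0.08 on a dim one. Pfkm, the muscle form, spread more widely, with 1351, 2376 and 1803 in wild type and 812, 1788, 1081 and 1184 in Hmga2 KO. Female replicate 2 lay inside the wild type range. On the log2 scale this was a difference of -0.62 (SE 0.267, limma adjusted p = 0.368). The gaps between Pfkp or Pfkm and Pfkl within a sample differed by -0.44 and -0.22 between genotypes (exact permutation p = 0.114 and 0.657, or 0.343 and 0.771 after adjustment over the pairs). None of the 9 gaps passed that test, and the adjusted p of the remaining 6 ran from 0.343 to 0.771. Even at the smallest possible p, 0.0286, a single gap could not pass after adjustment over 9 pairs. The test therefore cannot show that any gap was equal between genotypes.

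Aldoa, the main aldolase of muscle, had 12782, 14094 and 14102 in wild type and 10584, 12507, 10788 and 11211 in Hmga2 KO. All 4 Hmga2 KO samples lay below the wild type samples, with replicate 2 the closest. In log2 units, Hmga2 KO differed from wild type by -0.28 (SE 0.0967, limma adjusted p = 0.305), and its 5 probe sets had -0.33 to -0.24. Tpi1, which interconverts the triose phosphates, had 5349.6, 6200.3 and 6576 in wild type and 4488, 5076, 4697 and 4510.2 in Hmga2 KO. Its groups did not overlap either, and the Hmga2 KO samples lay close together. The log2 difference was -0.36 (SE 0.103, limma adjusted p = 0.288), with -0.40 and -0.42 on its other probe sets.

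The hexokinase genes, whose products trap glucose in the cell, had small differences. Hk2, the insulin-responsive form of muscle, had 1977, 2140.2 and 1992 in wild type and 2133, 2144, 1623 and 2304 in Hmga2 KO. Its groups overlapped and their log2 difference was 0.00, with a 95% interval of -0.29 to 0.29. Hk1, the form found in most tissues, differed by 0.08. The genes of the bifunctional enzymes that set the phosphofructokinase activator, Pfkfb3 and Pfkfb4, had differences of -0.26 and -0.07 with overlapping groups. In females alone Pfkfb3 had -0.52 (limma adjusted p = 0.634). Aldoc, the brain aldolase, lay at background in most samples.

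**Figure D3:**
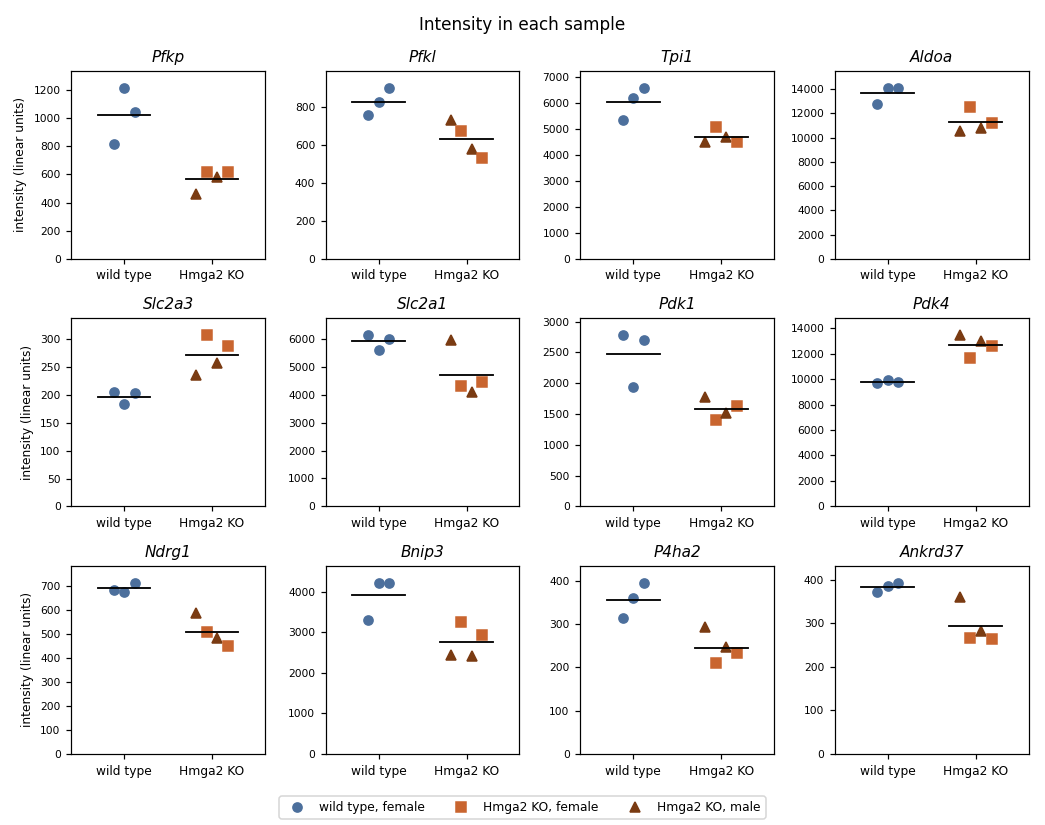
Intensity (linear units) of 12 genes in each sample, with wild type at left, Hmga2 KO at right, symbols by sex and a black line at the group mean. Groups do not overlap in 11 panels. In the Slc2a1 panel male Hmga2 KO replicate 1, at 5987, lies among the wild type samples.

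In lower glycolysis, from glyceraldehyde phosphate to lactate, 0 of 8 measured genes had an unadjusted p under 0.05 (limma), against 13.3% of all genes. The adjusted test was passed by 0 of the 8. All 8 differences lay below the median of all genes, with a median of -0.20. Gapdh, read on the control probe set at its 3' end, had 13425, 13910.1 and 14835 in wild type and 12297, 14224, 12381 and 12912 in Hmga2 KO. The groups overlapped through replicate 2, and the log2 difference was -0.12 (95% interval -0.33 to 0.09). Pgk1, the first step that yields ATP, had 15564, 15959 and 17127 in wild type and 14599, 15162, 14509.5 and 14766 in Hmga2 KO. Here the groups did not overlap, but the log2 difference was small, -0.13 (limma adjusted p = 0.501).

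Pkm, the pyruvate kinase of muscle, had 10142, 10611 and 11532 in wild type and 9825, 10649, 9662 and 10220.1 in Hmga2 KO. The groups overlapped, and its difference of -0.09 turned to 0.02 when the gene medians of the arrays were set equal. Ldha, which turns pyruvate into lactate, had 8218, 10485 and 11881 in wild type and 8269, 9427, 8173 and 7699 in Hmga2 KO. Wild type replicate 1 lay among the Hmga2 KO samples, and the log2 difference was -0.27 (limma adjusted p = 0.425). The muscle forms Pgam2 and Eno3, a phosphoglycerate mutase and an enolase, had the widest gaps of this stretch, -0.66 and -0.42. Their groups overlapped, with Pgam2 at 2199 to 4197 in wild type and 962 to 2960.1 in Hmga2 KO. Ldhb, the heart form of lactate dehydrogenase, had -0.31 and Pgam1, the widely expressed mutase, -0.11, both with overlapping groups.

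The 4 pyruvate dehydrogenase kinase genes divided. Pdk1, the form induced by Hif1a, had intensities of 2778, 1942 and 2709 in wild type and 1771, 1403, 1516 and 1636 in Hmga2 KO. All Hmga2 KO samples lay below all wild type samples, and wild type replicate 2 was the nearest to them. The means were 2476 ± 464 (SD, n = 3) and 1582 ± 158 (SD, n = 4). Hmga2 KO minus wild type came to -0.63 (SE 0.145, limma adjusted p = 0.223). Of its other 3 probe sets, 2 had -0.65 and -0.76, and a dim one -0.05. Pdk4, the form induced in muscle by fasting and fatty acids, had 9663, 9969 and 9774 in wild type and 13440.3, 11689, 12977 and 12610.3 in Hmga2 KO. It had the opposite order with no overlap, and the males were the highest. On the log2 scale this was a difference of 0.37 (SE 0.0879, limma adjusted p = 0.239), which corresponds to 129% of wild type.

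Pdk2, abundant in heart and skeletal muscle, had 333, 420 and 395 in wild type and 210.5, 366, 248 and 316 in Hmga2 KO. Female replicate 2 lay inside the wild type range and both males were the lowest. In log2 units, Hmga2 KO differed from wild type by -0.45 (SE 0.186, limma adjusted p = 0.353). Pdk3 had -0.37 with overlapping groups (limma adjusted p = 0.427).

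Both glycogen genes were lower at an unadjusted p under 0.05, against 10.3% of all genes, with overlapping groups. Pygm, the glycogen phosphorylase of muscle, had 1047, 1543 and 1328 in wild type and 595, 1357, 727 and 859 in Hmga2 KO. Female replicate 2 was above the wild type mean and the other 3 below the wild type range. The log2 difference was -0.61 (SE 0.258, limma adjusted p = 0.357). Gys1, the glycogen synthase of muscle, had 1511, 1641 and 1145 in wild type and 841, 1124, 841 and 1186 in Hmga2 KO. The males were the lowest and gave nearly 1 value, and only replicate 4 lay inside the wild type range. Hmga2 KO minus wild type came to -0.52 (SE 0.172, limma adjusted p = 0.298), with -0.23 on its second probe set.

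The hypoxia factor and its sensors had overlapping groups on their brightest probe sets. Hif1a, the oxygen-regulated subunit of the factor, had 9749, 7938 and 9591 in wild type and 8561, 8768, 9269 and 9789.6 in Hmga2 KO. On the log2 scale this was a difference of 0.00, with a 95% interval of -0.23 to 0.24, and -0.14 to 0.01 on its other 3 probe sets. This is a transcript level, and Hif1a is regulated mainly as a protein, which was not measured. The prolyl hydroxylase genes Egln1 and Egln3, which act as the oxygen sensors, had -0.20 and -0.33. On its dimmer probe set Egln1 had -0.29, with every Hmga2 KO sample below every wild type sample. The dimmer probe set of Egln3 had -0.46 with overlapping groups.

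Of the 10 hypoxia-induced genes, 5 were lower at an unadjusted p under 0.05 and 0 were higher, against 10.3% and 2.99% of all genes. P4ha2, a subunit of the hydroxylase that matures collagen, had 314, 360.4 and 396 in wild type and 294, 209.6, 248 and 233 in Hmga2 KO. All Hmga2 KO samples were lower, the females most. In log2 units, Hmga2 KO differed from wild type by -0.54 (SE 0.134, limma adjusted p = 0.251). Ndrg1, a stress gene of growth arrest and differentiation, had 684, 678 and 715 in wild type and 589, 511, 484 and 449.6 in Hmga2 KO. The wild type samples lay within a narrow range, with every Hmga2 KO sample under it. The log2 difference was -0.45 (SE 0.108, limma adjusted p = 0.245). Its next 2 probe sets had -0.42 and -0.46 and the 2 dimmest -0.11 and -0.12.

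Bnip3, which directs mitochondria to autophagy, had 3300.3, 4215 and 4206 in wild type and 2448, 3244, 2407 and 2922 in Hmga2 KO. The groups did not overlap, and the males were the lowest. Hmga2 KO minus wild type came to -0.51 (SE 0.141, limma adjusted p = 0.284). Its promoter, shown above, had 5 motif matches, with a CACGTG palindrome counted on both strands. Ankrd37, an ankyrin repeat gene and known Hif1a target, had 372, 386 and 393 in wild type and 361, 265, 282 and 264 in Hmga2 KO. Male replicate 1 lay close to wild type and the other 3 well below. On the log2 scale this was a difference of -0.40 (SE 0.123, limma adjusted p = 0.293). Higd1a, a mitochondrial inner membrane protein gene, had 3473, 4370.2 and 4109 in wild type and 3259, 3438, 3073 and 3333 in Hmga2 KO. Its groups were separate but close, with a log2 difference of -0.28 (SE 0.105, limma adjusted p = 0.331). Its dimmer probe sets each had -0.16 with overlapping groups.

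Other induced genes had no such order. Vegfa, the angiogenic growth factor, had 2959.9, 3329 and 2782 in wild type and 3222, 3054, 3726 and 3175 in Hmga2 KO, with overlapping groups. Its log2 difference was 0.12 (95% interval -0.12 to 0.37), and 0.36 on a dimmer probe set. Ddit4, an inhibitor of mTOR signalling, had 7879 to 8117 in wild type and 8322 to 11216 in Hmga2 KO. Every Hmga2 KO sample was higher, the males most, and the log2 difference was 0.26 (limma adjusted p = 0.407). Adm, a vasodilator peptide gene, varied more within the groups than between them, from 292 to 745 in wild type and from 204 to 1200 in Hmga2 KO. Car9, a carbonic anhydrase and a frequent marker of hypoxia in tumours, stayed dim at 73.4 to 84.9 in all 7 samples. P4ha1, the other collagen hydroxylase subunit here, had -0.27 with overlapping groups.

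Within Hmga2 KO, the 2 males were set against the 2 females in a fit of 3 groups, since there were no wild type males. None of the 42 genes passed the adjusted test (limma), which 0.0385% of all genes passed, and 7 had an unadjusted p under 0.05, against 6.30% of all genes. Slc2a4 was lower in the males by 1.22 on the log2 scale (adjusted p = 0.336), Pdk2 by 0.57 (adjusted p = 0.542) and Pygm by 0.71 (adjusted p = 0.663). Slc16a3 was higher in the males by 0.90 (adjusted p = 0.455) and Ddit4 by 0.37 (adjusted p = 0.588). These comparisons of the sexes rest on 2 samples each. Against the same 3 wild type samples, which they share, the female and male means differed by -0.27 and -1.48 for Slc2a4, -0.26 and -0.97 for Pygm, and -0.30 and -0.94 for Pfkm. For Pfkp these were -0.72 and -0.96, for Pdk1 -0.69 and -0.58, for P4ha2 -0.68 and -0.39, and for Pdk4 0.31 and 0.43. In the males, sex and genotype cannot be told apart.

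**Figure D4:**
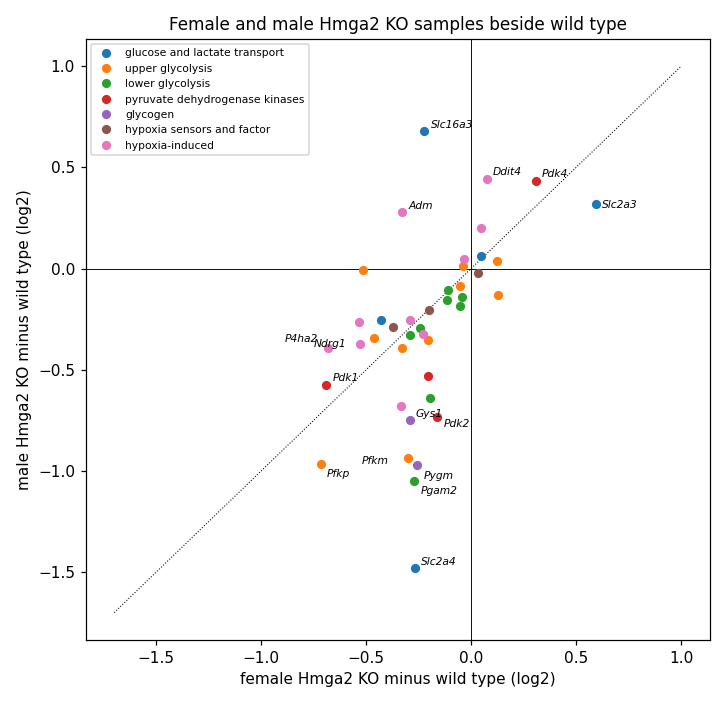
Log2 difference from the 3 wild type samples of the 2 female (horizontal axis) and the 2 male (vertical axis) Hmga2 KO samples for each of the 42 genes, coloured by role. Both axes share the wild type samples, so points near the dotted line of equality are no independent agreement. Slc2a4 lies far below the line at -0.27 and -1.48, while Pdk1, at -0.69 and -0.58, lies near it.

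Markers of differentiated muscle moved with several of these genes. Of 48 sarcomere and terminal differentiation genes, 23 were lower in Hmga2 KO at an unadjusted p under 0.05 (47.9%) and 1 higher (2.08%). Among all genes these shares were 10.3% and 2.99%. The adjusted test (limma) was passed by 0 of the 48. Their median difference was -0.62, and -0.23 in females alone. In females alone 7 of the 48 were lower and 1 higher at an unadjusted p under 0.05, against 4.64% and 2.21% of all genes. Within Hmga2 KO, 29 of the 48 were lower in males than in females at that p, with a median of -0.70. Among all genes 6.30% differed between these sexes in either direction. The smallest p values belonged to Myh8, Tcap, Casq2 and Casq1, and none of the 48 was at background in all samples. Summed intensity was 189903 to 264772 in wild type and 104939 to 218638 in Hmga2 KO, highest in wild type replicate 2 and lowest in male Hmga2 KO replicate 1. The mean log2 level of the list relative to all samples was 0.06, 0.64 and 0.34 in wild type and -0.90, 0.29, -0.32 and -0.11 in Hmga2 KO. In bulk samples fewer differentiated cells and less RNA per cell cannot be told apart.

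Several of the 42 genes had the same extremes as this list. Wild type replicate 2 was the highest and Hmga2 KO replicate 1 the lowest sample for Slc2a4, Pfkm, Pfkp, Pgam2, Eno3, Pdk2, Pygm and Gys1. With the list's mean as a covariate, a setting chosen after the data had been seen, the log2 differences of Slc2a4, Pfkm, Pygm and Pdk2 were -0.06, 0.00, -0.02 and -0.04. Pgam2 and Eno3 turned to 0.19 and 0.04. Bnip3 had -0.26, Aldoa -0.15, Higd1a -0.18, Tpi1 -0.26 and Gys1 -0.29, none with an unadjusted p under 0.05. In the same setting Pfkl had -0.46, Pfkp -0.55, Pdk1 -0.86, P4ha2 -0.71, Ankrd37 -0.58, Ndrg1 -0.56, Slc2a1 -0.56, Slc2a3 0.59 and Pdk4 0.30. Of the 18 genes with an unadjusted p under 0.05, 9 kept it, and the median of the 42 became -0.12, with 10 lower and 2 higher, against 5.75% and 3.30% of all genes. The covariate itself differs between the genotypes, so that part of a genotype difference is taken out with it. Within Hmga2 KO it also differs between the sexes, at -0.90 and -0.32 in the males and 0.29 and -0.11 in the females. Part of a sex difference is thus taken out as well.

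**Figure D5:**
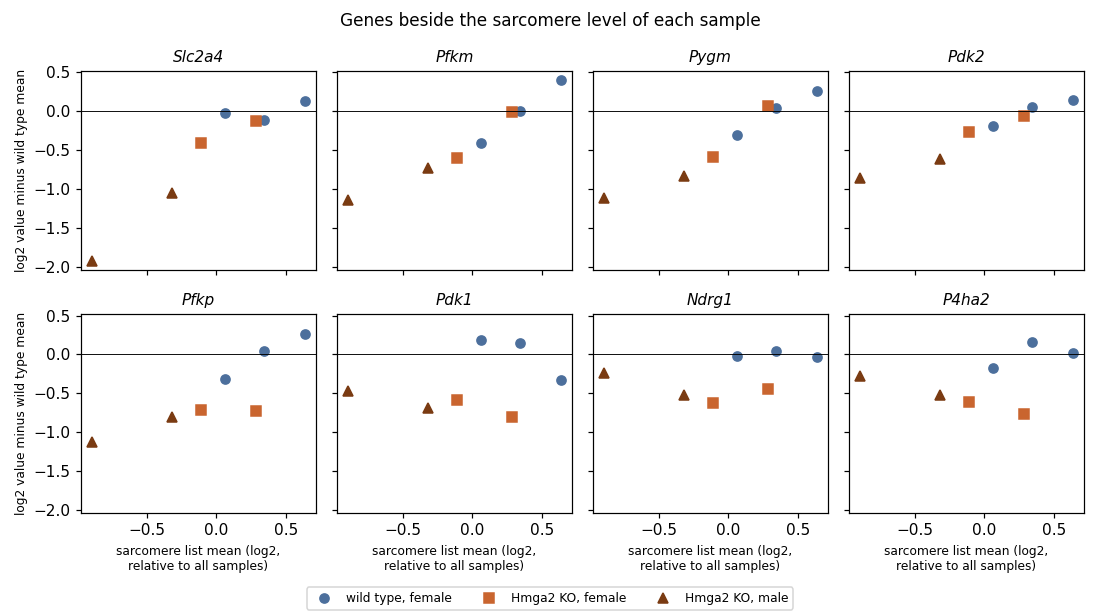
Log2 value minus the wild type mean of 8 genes (vertical axis) against the mean log2 level of the 48 sarcomere and differentiation genes in the same sample (horizontal axis), with symbols by genotype and sex. In the upper panels (Slc2a4, Pfkm, Pygm, Pdk2) samples of both genotypes lie along a common rise from Hmga2 KO replicate 1 at -0.90 to wild type replicate 2 at 0.64. In the lower panels (Pfkp, Pdk1, Ndrg1, P4ha2) the Hmga2 KO samples lie below the wild type samples at like sarcomere levels.

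Fibroblast markers had the opposite order. Of 22 measured, 0 were lower and 5 higher at an unadjusted p under 0.05, against 10.3% and 2.99% of all genes. The median difference was 0.14, or 0.06 in females alone. Summed intensities were 22336 to 25157 in wild type and 26982 to 30172 in Hmga2 KO. Mgp, Cd55, Smoc2 and Islr had the smallest p values, Fap was at background in all samples, and Lum and Dpt lay near it. The part of these cells in the differences of the metabolic genes was not tested. Among endothelial, leukocyte, erythroid and Schwann cell markers, 0 had an unadjusted p under 0.05 (limma) and 0 passed the adjusted test. Of 9 adipocyte markers 0 were lower and 2 higher, and of 12 smooth muscle markers 1 was lower and 2 were higher.

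The rest of each pathway was read from longer lists, also drawn up with earlier results of these data known. Of all genes, 10.3% were lower and 2.99% higher at an unadjusted p under 0.05, with a median of -0.07. Of 41 other genes of glycolysis and glucose entry, 6 were lower (14.6%) and 5 higher (12.2%), none past the adjusted test, with a median of -0.06. The lower ones included genes of the pyruvate dehydrogenase complex and its phosphatase: Pdp1 at -0.55 (limma adjusted p = 0.293), Dlat at -0.44 (adjusted p = 0.297) and Dld at -0.38 (adjusted p = 0.339). The dim transporter gene Slc2a2 had -0.44. Slc2a13, a myo-inositol transporter gene, had 0.63, Gpd2, the mitochondrial glycerol phosphate dehydrogenase, 0.44, the monocarboxylate carrier Slc16a7 0.35 and the dim Eno4 0.21.

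Of 23 other glycogen genes, 4 were lower (17.4%) and 0 higher, with a median of -0.23 overall and -0.07 in females alone. These were the glycogen-targeting phosphatase subunits Ppp1r3a (-0.49) and Ppp1r3c (-0.51), the primer protein Gyg (-0.25) and the phosphorylase kinase subunit Phka2 (-0.53). Ppp1r3a and Ppp1r3c were dim, at 54.4 to 81.0 and 57.7 to 77.6 in Hmga2 KO, which reaches the background limit of 58.2. Of 59 other hypoxia genes, 9 were lower (15.3%) and 3 higher (5.08%), with a median of -0.12. The lower ones with the smallest p were Zfp395 (-0.43), Mt2 (-0.52), Lonp1 (-0.39) and Ero1a (-0.27), and the higher ones Stc1 (1.03), Car12 (0.49) and Hmox1 (0.57). Stc1, a secreted glycoprotein gene, was dim, with a wild type mean of 118 and an Hmga2 KO mean of 239. None of these passed the adjusted test.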

How the data were processed

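Per the labels' protocols, total RNA of 7 myoblast samples was labelled with biotin for Affymetrix arrays. What the authors deposited are intensities on a linear scale for 45101 probe sets, with a median of 150 in each sample, so the arrays had been scaled to a common median. No source used here states the software, the summarization or the background correction, and no detection calls were used. Dim probe sets do not reach 0 (the lowest values are 33.2 to 36.7), so dim genes show too small a difference.

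The analysis used log2(intensity + 1) without further normalization. The platform annotation paired 34948 probe sets with 1 gene, 932 with several, which were left out, and 9160 with none, besides 64 controls. Control probe sets were used for genes without another single-gene probe set, which concerns Gapdh. Each of 18194 genes was read on its brightest probe set, by the mean of all 7 samples, and levels were not compared between genes.

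Samples were grouped by their titles. Groups were fitted with lmFit and eBayes of limma 3.58.1 (R 4.3.3) without covariates, and p-values were adjusted by Benjamini-Hochberg over all genes with a threshold of 0.05. Intervals are at 95%. Males and females were compared in a 3-group fit. Gaps between isozyme genes were tested by exact two-sided permutation over all 35 ways to assign the samples, of which the smallest possible p is 0.0286. The genes described and all lists were chosen with earlier results of these data known. Named were all 44 genes, with each sample's values for those with an unadjusted p under 0.05 and for 12 fixed ones, up to 4 genes in each direction of the other pathway lists, and up to 5 in the comparison of the sexes. Same-numbered wild type and Hmga2 KO samples were checked for pairing: the deviations of replicates 1 and 2 correlated with those of the same number and those of replicate 3 did not, so the numbers were not taken as pairs.

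Alternative settings added sex or the replicate number to the model, used females only, left out samples singly, set gene medians equal or normalized by quantiles, dropped the dimmest 40% of genes, and took the mean or the most variable of a gene's probe sets. Others used a pseudocount of 16, a trended robust prior, array weights or an adjusted p of 0.1. The fit was tested on simulated data for the Hmga2 KO comparison, with normal noise independent between genes. Changed genes were drawn from outside the dimmest 40%, so the recovery need not hold for the real data. Over 5 simulations with 200 of 18194 genes changed, 38.8% of genes changed 1.5-fold, 80.6% of those changed 2-fold and 97.6% of those changed 4-fold were recovered, with 4.08% false calls.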

Additional observations from a re-analysis of the deposited data

How the results depend on the processing

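Most of the differences described are smaller than 1.5-fold, a size of which the test recovered a minority in simulated data with 3 and 4 samples. A gene that missed the threshold is thus not shown to be equal. Each of the 18 genes with an unadjusted p under 0.05 kept its direction in 18 alternative settings, and 6 kept that p in each (Pfkp, Tpi1, Pdk1, Pdk4, Ndrg1 and P4ha2). With the sarcomere mean as a covariate, a setting chosen after the data had been seen and not among the 18, Pfkm lost its direction (0.00) and Tpi1 its p (-0.26, limma adjusted p = 0.600). Only 25 of the 42 genes, all those with an unadjusted p under 0.05 among them, were followed singly through the 18 settings. Of the followed genes past no threshold, Hk2, Pkm and Hif1a turned direction in at least 1 of the 18 settings. Genes that were not followed could turn as well. Slc16a3 had 0.23 without covariates, but -0.22 in females alone and with sex as a covariate. Of the 42 genes, 33 had a negative difference as deposited and 27 with equal medians. Replicate numbers were not taken to pair the samples, since the deviations of same-numbered samples correlated at 0.31 and 0.37 for replicates 1 and 2 but at -0.18 for replicate 3. With the replicate number as a block, 99 genes passed the adjusted test, and of the 42 genes 1 did, Pfkp (-0.88, limma adjusted p = 0.0320). In the other 17 settings the smallest adjusted p of the 42 genes was 0.110, and it was 0.0784 without both wild type replicate 2 and Hmga2 KO replicate 1, a setting also chosen after the data had been seen.

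The 5 genes past the test became 8 with equal medians and 9 at an adjusted p of 0.1, and ranged from 2 to 17 when 1 sample was left out. They were 3 without wild type replicate 1, 2 without wild type replicate 3, 17 without Hmga2 KO replicate 2 and 3 when Hmga2 KO replicate 3 was left out. The 16 lower genes of the 42 became 10 with sex as a covariate, 9 in females alone and 10 with quantile normalization. They became 8 with equal medians and 10 with the sarcomere mean as a covariate. Leaving out 1 sample gave 8 to 19. The share of all genes that was lower moved as well, from 10.3% to 5.13%, 4.64%, 6.47%, 3.46% and 5.75% in these settings. It ranged from 5.50% to 13.8% when 1 sample was left out. The 2 higher genes became 1 with the mean of a gene's probe sets, against 2.75% of all genes. They became 3 with the replicate block, quantile normalization, equal medians, the most variable probe set or the trended robust prior. The same held when Hmga2 KO replicate 2 or 4 was left out. The share of all genes that was higher ranged from 2.62% to 7.29% in the settings with 3. The median of the 42 genes was -0.12 with the sarcomere mean as a covariate. The cause of these moves was not tested. Isozyme gaps had adjusted p values (exact permutation) of 0.257 or more over 12 settings, in which a single gap could not pass after adjustment.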
